A study of Homo sapiens with 6 samples.

Results

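The insulin-like growth factor (IGF) binding proteins and the receptors and receptor substrates of insulin and IGF were followed in the human lung adenocarcinoma line A549, with and without exposure to the compound DAMTC. Members were all probes annotated by the array platform to IGFBP1, IGFBP2, IGFBP3, IGFBP4, IGFBP6, IGFBP7, IGF1R, INSR, IRS1 or IRS2. They amounted to 12 of the 48803 probes, for 10 of 18665 genes, with 2 probes each for IGFBP3 and IRS1. The genes were chosen by symbol as a family, with the log2 differences of an earlier analysis of these arrays in view, in which IGFBP1 stood among the largest falls. The control group was 3 arrays of A549 cells with no agent named in the labels, and the treated group was 3 arrays of the same line after 24 h with DAMTC at 160 µg/ml. DAMTC is known here by this code name alone, and the sources used here name no vehicle for the controls. Triplicates are called biological in the labels, but no separate cultures are named, so a p-value covers only the spread seen over these arrays, which may in part be technical. Only 1 cell line was used.

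Insulin and the IGFs act through related receptor tyrosine kinases, the insulin receptor (INSR) and the type 1 IGF receptor (IGF1R), which phosphorylate the docking proteins IRS1 and IRS2. The docking proteins recruit PI3 kinase, whose product activates AKT, and AKT keeps the FOXO transcription factors out of the nucleus. In the space outside the cell, the IGF binding proteins (IGFBP genes) hold the IGFs and set how much ligand reaches the receptors, until proteases such as pappalysin (PAPPA) cleave them. In liver, insulin represses transcription of IGFBP1 and IRS2, and FOXO factors are known to activate both genes.

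Levels are log2 of the background-corrected, quantile-normalized bead intensity of a probe, and a probe counted as detected on an array where its detection p was under 0.05. A probe was tested if it was detected on at least 3 of the 6 arrays, which 17009 probes were. Differences are DAMTC minus control on the log2 scale with their standard error (SE, n = 3 per group), from limma fitted over all probes tested, and a call needs a Benjamini-Hochberg adjusted p below 0.05. Since earlier results of this contrast were known, the adjusted p-values of the members only place each probe within the fit over all probes, and none is given for IGFBP1, whose fall was known beforehand.

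Between 16329 and 17835 probes were detected per array, with a median of 36 to 38 beads behind each value. The groups separated on the first principal component, and on the second control replicate 1 stood apart at 68.0, with the other controls at -43.1 and -24.3. All arrays shared 1 chip, where the controls took the first positions and the treated samples the others, and position therefore cannot be told apart from treatment. Of the epithelial markers with a probe, 6 of 7 were detected on all arrays, KRT8 and KRT18 among them, and 1 of the 6 tested passed, CDH1 (-1.64 ± 0.42, adjusted p = 0.0230). AKR1C1 was detected on no array, and KRT18 by its tested probe alone. Detected on no array were 3 of 5 fibroblast markers (COL1A2, COL3A1 and PDGFRB), 2 of 5 endothelial (CDH5 and VWF), 3 of 5 hepatocyte (ALB, APOB and APOA1) and 2 of 4 immune markers (PTPRC and CD3E). Of the others, PECAM1 of endothelium was detected on all arrays near background, where the groups did not overlap (5.55 and 6.18 on average on the log2 scale) and the difference of 0.63 ± 0.27 did not pass (limma adjusted p = 0.126). TTR of hepatocytes was detected on all 3 control and 2 DAMTC arrays and differed by 0.16 ± 0.27 (limma adjusted p = 0.721), and no probe of COL1A1, DCN, KDR, TEK or CYP3A4 was detected on more than 1 array. Summed over its probes in the deposited series matrix, which is shifted down by 119 to 141 intensity units per array relative to the mean bead intensity and rescaled, and with negative values set to 0, the fibroblast list came to 43.2 to 83.7 in controls and 40.6 to 63.6 with DAMTC. On the same scale the endothelial list came to 45.5 to 90.4 and 47.9 to 91.4, and the hepatocyte list to 55.3 to 71.1 and 53.0 to 60.3. The immune list summed to 2513 to 3329 and 3258 to 7231, mainly from CD68 and CD14, of which neither passed. The part of these markers in the results was not tested.

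Of the 12 probes, 10 were tested. With DAMTC, 3 of these fell, namely those of IGFBP1, IGF1R and IRS1, and 1 rose, that of IRS2, while 6 did not pass. Over all probes tested, 23.4% were called, 11.7% higher and 11.6% lower, and since the members were chosen with this contrast in view nothing is read from the comparison of these shares. The median difference was -0.18 over the 10 member probes and -0.01 over all probes tested, and the median absolute difference was 0.84 and 0.49. On the normalized scale the groups did not overlap for 6 of the 10 member probes, against 40.1% of all probes tested. For the same reason nothing is read from the comparison of these medians and of this share. RNA came from whole cultures, so fewer cells expressing a gene and less of its RNA per cell cannot be told apart.

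**Figure D1:**
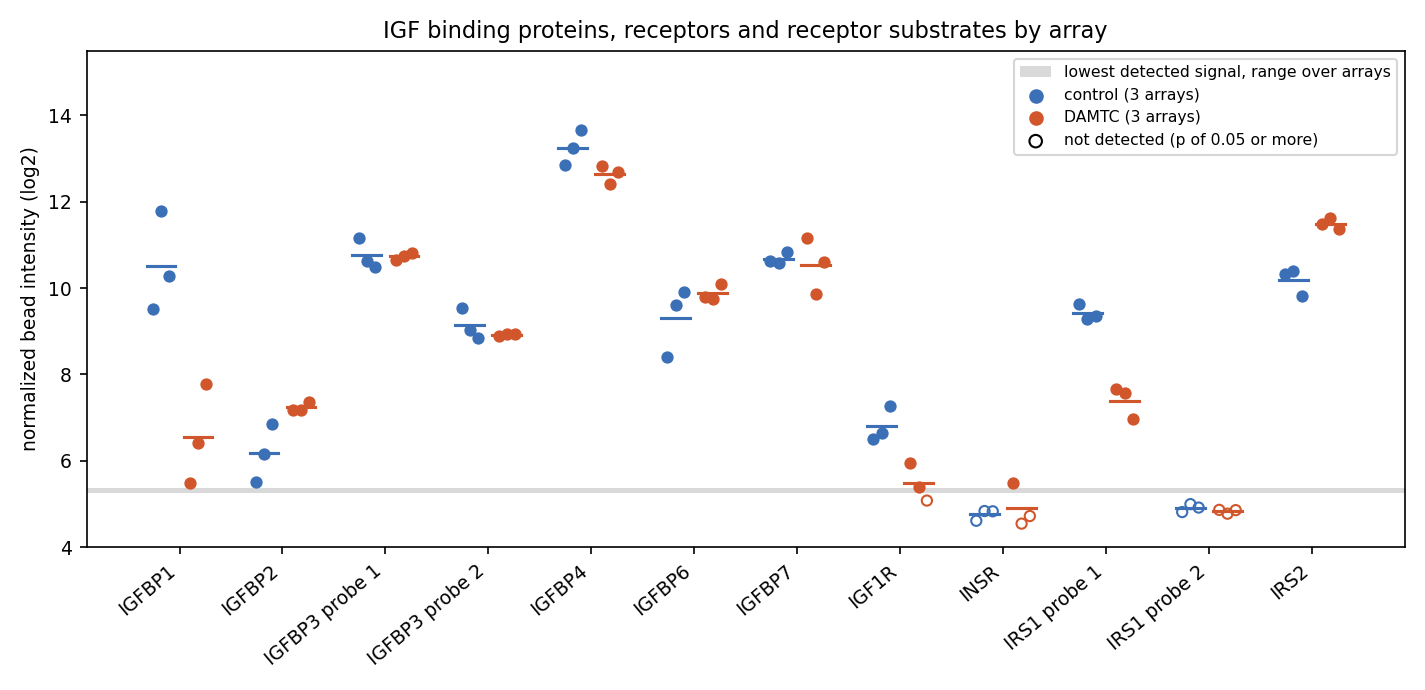
Log2 normalized bead intensity of the 12 member probes on each array, with controls in blue, DAMTC arrays in orange, horizontal bars for group means and open circles where a probe was not detected. The grey band is the lowest detected signal over the arrays. IGFBP1, IGF1R and the first IRS1 probe lay lower on all 3 DAMTC arrays, IRS2 lay higher, and INSR and the second IRS1 probe stayed below the band except for INSR on 1 DAMTC array.

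Among the secreted binding proteins, IGFBP1 had by far the largest difference. Its probe read 9.52, 11.78 and 10.27 on the log2 scale in control replicates 1 to 3 and 5.50, 6.41 and 7.77 in DAMTC replicates 1 to 3. The lowest control thus lay above the highest DAMTC array, although each group spanned over 2 log2 units. The mean difference was -3.96 ± 0.67, a 15.6-fold fall, and 0.182% of the 17009 probes tested had a larger absolute difference. This fall was in view when the members were chosen, so nothing further is read from its rank. IGFBP1 encodes a small carrier that is regulated within hours by insulin, nutrients and stress, and in humans is made mainly in liver and decidua.

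The untransformed intensities gave the same order. IGFBP1 read 888, 3797 and 1621 intensity units in the controls, a ratio of 4.28 between the highest and the lowest array. With DAMTC it read 143, 204 and 320, a ratio of 2.24. The bead standard error was 2.76% to 4.09% of the intensity on any array, so the replicates differed from each other by more than the bead error. DAMTC replicate 1 lay close to background, with a detection p of 0.0316. The fold was 10.1 without control replicate 2, the brightest control, and 23.7 without DAMTC replicate 3, the brightest treated array. With no background correction, which leaves the shared background in both groups, the difference was -2.75.

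The neighbouring binding protein gene gave other values. IGFBP3 lies next to IGFBP1 on chromosome 7, with 0 protein-coding genes between them in the RefSeq gene table, and encodes the carrier that holds most circulating IGF. Its first probe read 11.17, 10.62 and 10.50 in controls and 10.64, 10.74 and 10.82 with DAMTC, a difference of -0.03 ± 0.26 (limma adjusted p = 0.949). The second probe read 9.53, 9.03 and 8.85 in controls and 8.89, 8.93 and 8.93 with DAMTC, a difference of -0.22 ± 0.26 (limma adjusted p = 0.584). On both probes the controls enclosed the DAMTC arrays, and control replicate 1 was the highest array. The differences of the 2 probes were 0.19 apart, and the exact two-sided permutation test over the 6 arrays gave p = 0.1, the smallest it can give. This test therefore could not reach 0.05, and agreement of the 2 probes is not read from it.

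**Figure D2:**
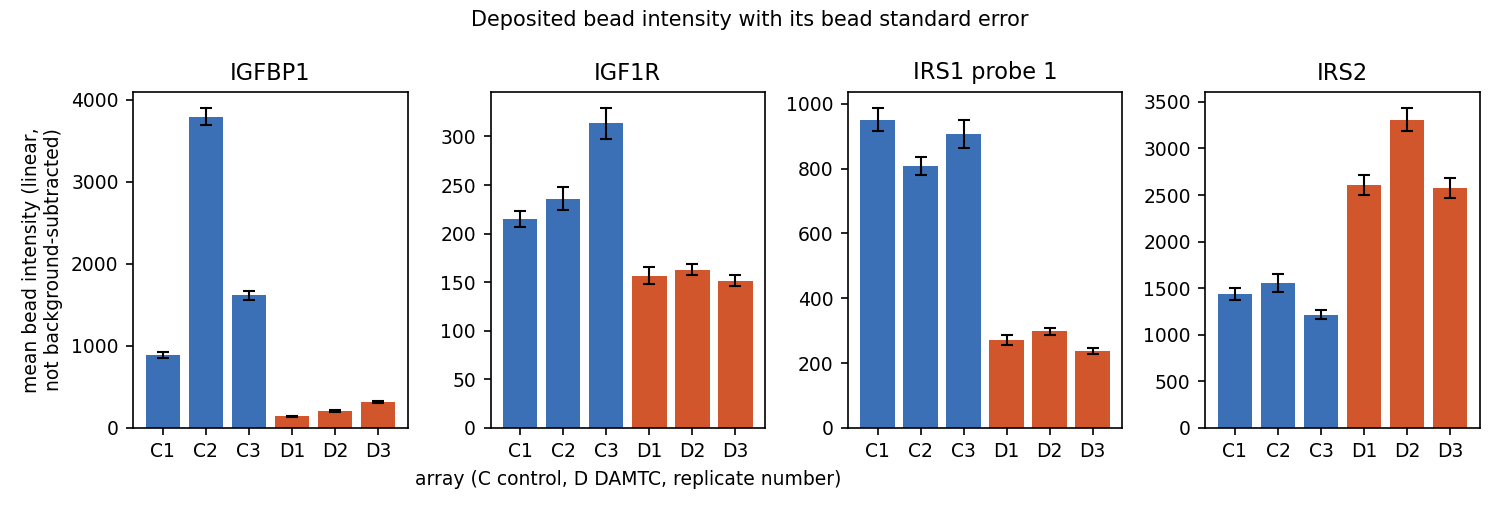
Deposited mean bead intensity on a linear scale, without background subtraction, for IGFBP1, IGF1R, the first IRS1 probe and IRS2 on control arrays (C1 to C3, blue) and DAMTC arrays (D1 to D3, orange), with the bead standard error as error bar. IGFBP1 ran from 888 to 3797 in controls and from 143 to 320 with DAMTC, and the bead error was small beside the spread between control arrays.

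The other 4 binding proteins did not pass the threshold. IGFBP2, a carrier abundant in fetal tissue and in many tumours, read 5.52, 6.16 and 6.86 in controls and 7.17, 7.18 and 7.37 with DAMTC. All 3 DAMTC arrays lay above the controls, and the treated arrays lay closer together (SD 0.11) than the controls (SD 0.67). The difference was 1.06 ± 0.34 with a limma adjusted p = 0.0520, just short of the threshold. It was 1.40 with adjusted p = 0.0199 without control replicate 3, and passed by a narrow margin where detection was required at p under 0.01, so that 2 member probes rather than 1 rose in these fits. In the other fits it did not pass, among them no background correction (0.44, adjusted p = 0.0799), array weights (0.60, adjusted p = 0.0819), median scaling (0.75, adjusted p = 0.174) and the fit without control replicate 1 (0.73, adjusted p = 0.0670).

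IGFBP4, a carrier that PAPPA cleaves, read 12.85, 13.25 and 13.66 in controls and 12.82, 12.40 and 12.69 with DAMTC. On this normalized scale the groups did not overlap, but the lowest control and the highest DAMTC array were nearly level. As bead intensities they overlapped, with control replicate 1 at 6577 below DAMTC replicates 1 and 3 at 6638 and 6764. The difference was -0.61 ± 0.28 (limma adjusted p = 0.150). Without control replicate 1, the array that stood apart on the second component, it was -0.82 with adjusted p = 0.0363, and with array weights -0.92 with adjusted p = 0.00702. It was -0.41 (adjusted p = 0.393) without control replicate 3 and -0.50 (adjusted p = 0.369) without DAMTC replicate 2, and did not pass in any of the other fits.

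IGFBP6, which binds IGF2 in preference to IGF1, read 8.41, 9.60 and 9.91 in controls and 9.80, 9.76 and 10.10 with DAMTC. The groups overlapped and the difference was 0.58 ± 0.38 (limma adjusted p = 0.318), and 0.13 without control replicate 1. IGFBP7, a related secreted protein with low affinity for IGFs, read 10.64, 10.57 and 10.83 in controls and 11.17, 9.86 and 10.59 with DAMTC. The DAMTC arrays enclosed the controls, and the difference was -0.14 ± 0.34 (limma adjusted p = 0.811), turning to 0.20 without DAMTC replicate 2. A seventh binding protein gene of the family that is no member, IGFBP5, had 2 probes near background and was looked at after its values were seen. The brighter probe was detected on 2 of 3 arrays of each group and differed by 0.29 ± 0.38 (limma adjusted p = 0.636).

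**Figure D3:**
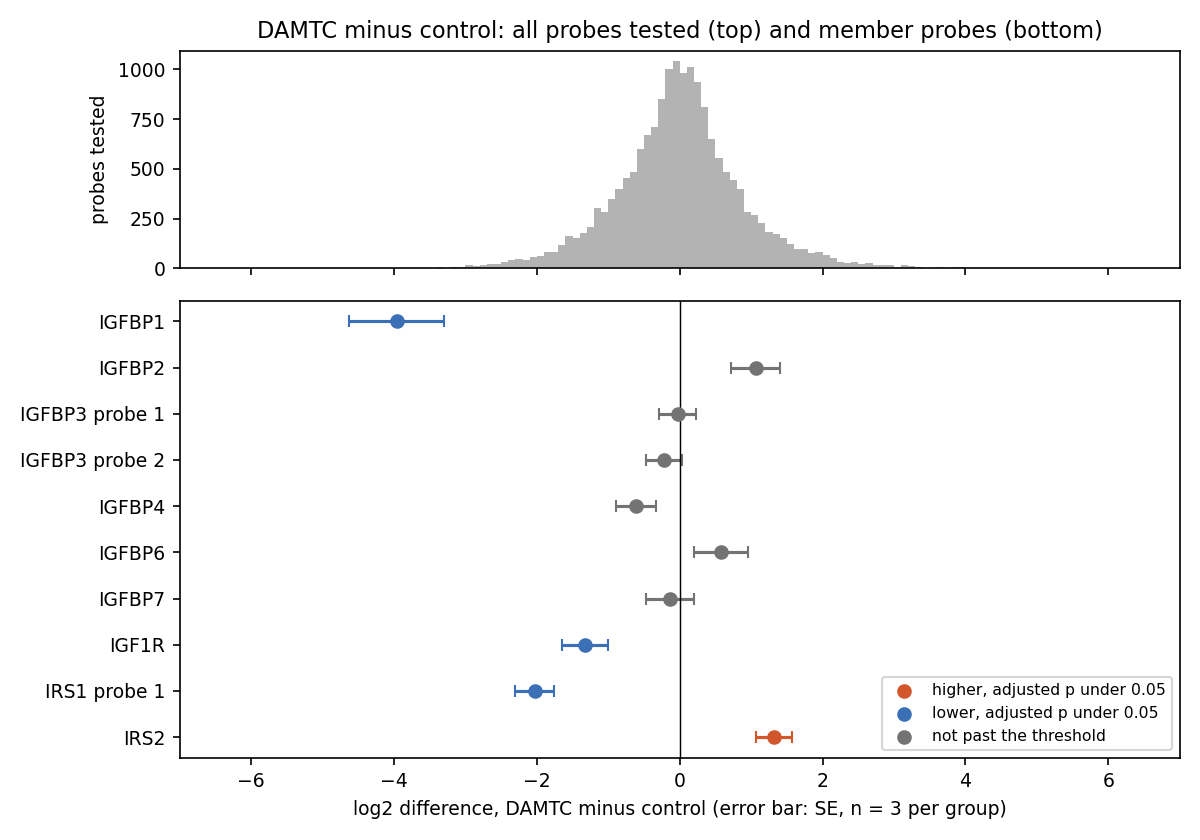
Top, the distribution of the log2 difference, DAMTC minus control, over the 17009 probes tested. Bottom, the same difference with its standard error (n = 3 per group) for the 10 member probes tested. IGFBP1 at -3.96 lay far in the lower tail, IRS1 at -2.03 and IGF1R at -1.33 lay below 0, IRS2 at 1.32 above it, and both IGFBP3 probes near it.

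Of the receptors, IGF1R, the receptor tyrosine kinase for IGF1 and IGF2, was lower with DAMTC. Its probe read 6.50, 6.64 and 7.27 in controls and 5.95, 5.39 and 5.08 with DAMTC. The groups did not overlap, but the DAMTC arrays lay near background, with detection p-values of 0.0132, 0.0395 and 0.124, so that the last array did not detect it. The difference was -1.33 ± 0.32, a 2.51-fold fall (limma adjusted p = 0.0171). With every value raised at least to the weakest detected signal of its array, an added setting chosen after seeing the data, it was -1.23 (adjusted p = 0.0216).

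Of the 4 calls, only that on IGF1R was lost in some fits. The difference was -1.09 (adjusted p = 0.0599) when control replicate 3 was left out. It was -1.29 (adjusted p = 0.0654) when DAMTC replicate 2 was left out and -1.13 (adjusted p = 0.0764) when DAMTC replicate 3 was. With no background correction the difference was -0.48 (adjusted p = 0.0581). Its sign was negative in every fit that tested it.

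INSR, the insulin receptor, could not be tested. Its single probe was detected on 0 of 3 control arrays and on 1 of 3 DAMTC arrays. It read 4.61, 4.83 and 4.83 in controls and 5.48, 4.54 and 4.72 with DAMTC, so the groups overlapped. The 1 detected value, on DAMTC replicate 1, had a detection p of 0.0343. The arrays therefore give no level of INSR other than that this probe was not above background on 5 of the 6 arrays.

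The docking proteins moved in opposite directions. IRS1 read 9.63, 9.29 and 9.35 on its first probe in controls and 7.65, 7.56 and 6.96 with DAMTC. Every DAMTC array lay over 1 log2 unit below every control, and the difference was -2.03 ± 0.27, a 4.09-fold fall (limma adjusted p = 0.00122). The second IRS1 probe was detected on no array and read between 4.77 and 4.99, so it gave no second measurement of the gene.

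IRS2 read 10.32, 10.39 and 9.83 in controls and 11.49, 11.64 and 11.36 with DAMTC. Every DAMTC array lay above every control, and the difference was 1.32 ± 0.25, a 2.49-fold rise (limma adjusted p = 0.00637). As bead intensities, IRS1 went from between 808 and 951 in controls to between 237 and 298 with DAMTC, and IRS2 from between 1214 and 1552 to between 2574 and 3309. Both calls held in each of the 6 fits that left out 1 array, with IRS1 between -2.16 and -1.82 and IRS2 between 1.14 and 1.42. With no background correction IRS1 differed by -1.43 and IRS2 by 1.22.

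The sequences before the gene starts are shown for the 3 called members that the promoter table holds, because these moved in different directions. They are the 250 bases upstream of the annotated start, from RefSeq on GRCh38.p14, written 5′ to 3′ on the strand of the gene. The table held 8 of the 10 member genes, without IGFBP1 and IGFBP7. Capitals mark matches on either strand to TGTTTTG, a form of the insulin response element, to TGTTTAC, the forkhead core that FOXO factors bind, or to ACGTG, the core of the hypoxia response element. These motifs share no letters where they matched.
IRS2, chr13:109786584-109786833, strand -: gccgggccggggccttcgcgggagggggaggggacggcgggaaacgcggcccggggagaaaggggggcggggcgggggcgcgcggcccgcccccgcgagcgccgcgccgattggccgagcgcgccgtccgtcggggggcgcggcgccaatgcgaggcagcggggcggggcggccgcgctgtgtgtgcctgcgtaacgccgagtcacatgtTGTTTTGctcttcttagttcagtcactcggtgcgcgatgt
IRS1, chr2:226799821-226800070, strand -: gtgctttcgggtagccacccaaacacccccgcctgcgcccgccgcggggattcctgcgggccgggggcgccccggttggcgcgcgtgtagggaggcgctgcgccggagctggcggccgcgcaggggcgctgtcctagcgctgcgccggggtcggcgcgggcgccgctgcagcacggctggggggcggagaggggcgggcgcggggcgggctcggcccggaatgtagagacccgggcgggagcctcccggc
IGF1R, chr15:98648289-98648538, strand +: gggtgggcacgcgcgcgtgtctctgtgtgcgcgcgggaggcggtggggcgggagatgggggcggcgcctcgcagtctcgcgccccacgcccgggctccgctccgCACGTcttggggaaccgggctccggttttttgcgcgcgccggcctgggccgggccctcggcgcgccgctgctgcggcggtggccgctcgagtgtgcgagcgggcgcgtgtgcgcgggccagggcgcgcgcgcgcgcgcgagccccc

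The IRS2 sequence held TGTTTTG once, 40 to 34 bases before the start, on the strand of the gene. Of all 35116 promoter entries, 4.30% held this motif in the same window, and no other of the 8 member genes in the table did. The IRS1 sequence held none of the 3 motifs. The IGF1R sequence held ACGTG once on the opposite strand, 146 to 142 bases before the start, as 18.5% of all entries did. TGTTTAC was found in 2.98% of all entries and, among the members, before IGFBP6 alone, 186 to 180 bases before its start on the opposite strand. Guanine and cytosine made up 76.4% of the IRS2, 80.8% of the IRS1 and 81.2% of the IGF1R window, against a median of 58.0% over all entries. A match describes letters and not a bound site.

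The array profile of IGFBP1 was shared most closely, among 3392 called probes of other genes, by MYO7A (Pearson r = 0.997 over the 6 arrays), LRMDA (0.995), GYG2 (0.994), PIGV (0.992) and LIMS1 (0.991). These 5 fell by between 0.87 and 2.49 on the log2 scale. The correlation is a description of 6 arrays that fall into 2 groups.

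The rest of the pathway was followed through 5 lists with 64 genes, of which 57 had a probe and 38 were tested, each by its tested probe of highest mean level. Of these 38 genes, 6 rose, 7 fell and 25 did not pass, with a median difference of -0.18. Over all probes tested, 11.7% were higher and 11.6% lower.

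The ligands themselves were at background. IGF1 with 2 probes and IGF2 with 3 probes were detected on no array, and INS on 1 control and 1 DAMTC array. Of the 2 genes of this list that were tested, IGF2R fell and IGFBP5 did not pass. IGF2R, the mannose 6-phosphate receptor that takes up and degrades IGF2, read 11.44, 11.88 and 11.09 in controls and 9.97, 9.85 and 10.26 with DAMTC. The groups did not overlap and the difference was -1.44 ± 0.28, a 2.71-fold fall (limma adjusted p = 0.00654). It lay between -1.66 and -1.19 over the alternatives that kept all arrays.

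Among 8 tested genes for proteases of binding proteins, their inhibitors and related secreted proteins, 2 fell, 1 rose and 5 did not pass. PAPPA, the protease that releases IGF from IGFBP4, read 13.63, 13.91 and 12.82 in controls and 10.51, 10.30 and 11.17 with DAMTC. Every DAMTC array lay over 1.5 log2 units below every control, and the difference was -2.80 ± 0.35, a 6.94-fold fall (limma adjusted p = 0.00104). STC1, whose product stanniocalcin-1 inhibits PAPPA, read 9.996, 9.47 and 10.10 in controls and 11.99, 11.75 and 12.01 with DAMTC. It rose 4.18-fold (2.06 ± 0.26, limma adjusted p = 9.84e-04).

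The related inhibitor gene STC2, which the rule for naming genes did not take and which was looked at after its values were seen, had a difference of -1.15 ± 0.37 (limma adjusted p = 0.0552). HTRA1, a secreted serine protease that can cleave binding proteins, read 11.57, 11.56 and 11.42 in controls and 9.94, 10.02 and 10.50 with DAMTC. The groups did not overlap and it fell 2.58-fold (-1.37 ± 0.25, limma adjusted p = 0.00507). PAPPA thus fell with IGFBP1, whereas its substrate gene IGFBP4 differed by -0.61 and did not pass.

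**Figure D4:**
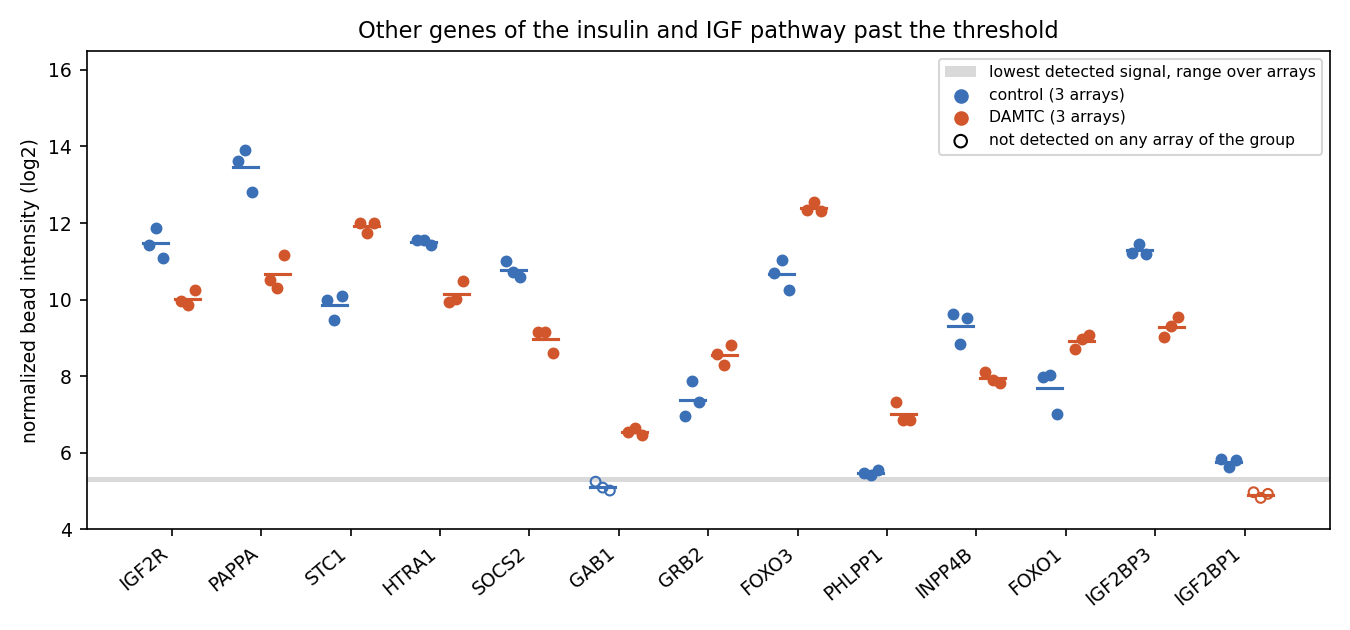
Log2 normalized bead intensity on each array of the 13 pathway genes past the threshold, with controls in blue, DAMTC arrays in orange, bars for group means and open circles where a probe was detected on no array of the group. PAPPA, IGF2R, HTRA1, SOCS2, INPP4B, IGF2BP3 and IGF2BP1 were lower with DAMTC, and STC1, GAB1, GRB2, FOXO3, PHLPP1 and FOXO1 were higher.

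Among 12 tested adaptors and brakes of the receptors, 2 rose, 1 fell and 9 did not pass. SOCS2, which restrains growth hormone signalling upstream of IGF1 production, read 11.01, 10.71 and 10.60 in controls and 9.15, 9.16 and 8.60 with DAMTC. It fell by 1.81 ± 0.26 on the log2 scale (limma adjusted p = 0.00188), and its second probe differed by -1.83 ± 0.37. GAB1, a docking protein like the IRS proteins, had 3 probes, and all but the tested one were detected on no array. The tested GAB1 probe was detected on no control array and on all 3 DAMTC arrays. It was at least 2.43-fold higher with DAMTC (measured means 5.12 ± 0.12 and 6.55 ± 0.09, SD, n = 3, limma adjusted p = 0.00255), where the bound raises each control at least to the weakest detected signal of its array and holds for the values as normalized here. The difference of 1.43 on the log2 scale became 0.48 (adjusted p = 0.0164) with no background correction and 0.90 (adjusted p = 0.00699) with an offset of 50, which are smaller than that bound.

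GRB2, the adaptor that links receptors and IRS proteins to RAS, read 6.95, 7.88 and 7.33 in controls and 8.59, 8.31 and 8.81 with DAMTC. It rose by 1.18 ± 0.30 (limma adjusted p = 0.0213), and its second probe by 1.16 ± 0.22. Among other fits, the call on the brighter probe was lost with median scaling (0.84, adjusted p = 0.0801), without control replicate 3 (adjusted p = 0.0639) and without DAMTC replicate 1 or 3 (adjusted p = 0.0705 and 0.0896).

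Among 13 tested genes of PI3 kinase, AKT and FOXO, 3 rose, 1 fell and 9 did not pass. FOXO3 had 3 probes, of which only the tested one was detected on more than 1 array. The tested FOXO3 probe read 10.69, 11.03 and 10.26 in controls and 12.34, 12.55 and 12.33 with DAMTC. It rose 3.35-fold (1.75 ± 0.27, limma adjusted p = 0.00234). FOXO1 read 7.99, 8.03 and 7.02 in controls and 8.72, 8.97 and 9.08 with DAMTC, and rose 2.36-fold (1.24 ± 0.32, limma adjusted p = 0.0224). Neither gene's groups overlapped. Among other fits, the call on FOXO1 was lost in 4 of the 6 fits that left out 1 array, without control replicate 3 and without each DAMTC replicate (adjusted p = 0.0526 to 0.0870), with median scaling (0.90, adjusted p = 0.0598), with the deposited series matrix values (1.01, adjusted p = 0.0551) and with no detection filter (adjusted p = 0.0574).

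PHLPP1, a phosphatase that removes an activating phosphate from AKT, read 5.47, 5.42 and 5.56 in controls, close to background, and 7.33, 6.85 and 6.85 with DAMTC. It rose by 1.53 ± 0.24 (limma adjusted p = 0.00281), and by 0.57 with no background correction. INPP4B, a lipid phosphatase that lowers a product of PI3 kinase, fell 2.60-fold (-1.38 ± 0.28, limma adjusted p = 0.00773). AKT1 itself differed by 0.10 ± 0.30 (limma adjusted p = 0.850), a value looked at after the rule had left it out. The probes of PDPK1, the kinase that activates AKT, disagreed. The brightest probe differed by 0.24 ± 0.31 (limma adjusted p = 0.633) and a dimmer one by 2.91 ± 0.42 (limma adjusted p = 0.00183), and the latter was detected on 2 of 3 control arrays.

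Of the 3 IGF2 mRNA-binding protein genes, whose products bind IGF2 and other transcripts, 2 fell and 1 did not pass. IGF2BP3 read 11.22, 11.45 and 11.19 in controls and 9.03, 9.32 and 9.54 with DAMTC, and fell 3.97-fold (-1.99 ± 0.24, limma adjusted p = 9.20e-04). IGF2BP1 was detected on all control arrays and on no DAMTC array. It was at least 1.34-fold lower with each DAMTC value raised at least to the weakest detected signal of its array. That bound holds only for the values as normalized here. The measured means were 5.76 ± 0.11 and 4.91 ± 0.08 (SD, n = 3), and their difference of -0.85 had a limma adjusted p = 0.0236. Its call was lost, among other fits, with no background correction (-0.28, adjusted p = 0.0755), with an offset of 50 (-0.46, adjusted p = 0.0671), with values raised to the weakest detected signal (-0.43, adjusted p = 0.132) and in 4 of the 6 fits that left out 1 array. IGF2BP2 differed by -0.19 ± 0.37 (limma adjusted p = 0.769).

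**Figure D5:**
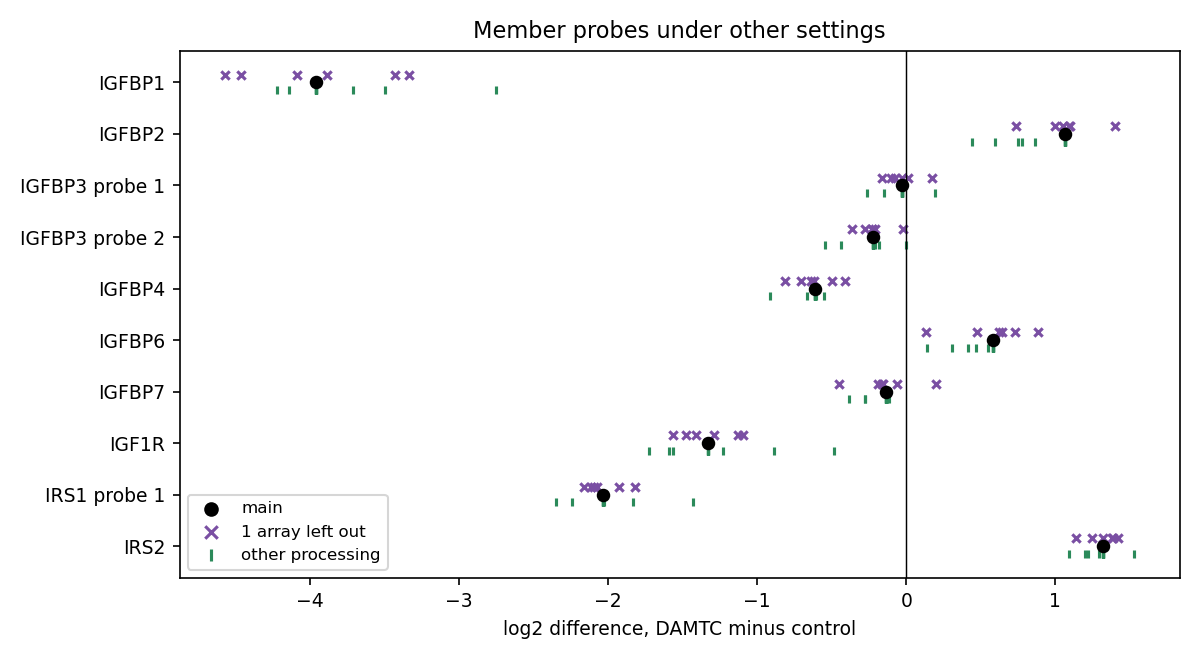
Log2 difference, DAMTC minus control, of the 10 member probes tested, with black dots for the main values, crosses for the 6 fits that left out 1 array and ticks for up to 12 other processing settings. IGFBP1, IGF1R and IRS1 stayed below 0 and IRS2 above 0 in all of them, and the first IGFBP3 probe and IGFBP7 lay on both sides of 0.

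Control replicate 1 was the lowest control on 5 of the 10 member probes tested and the highest on 3. Without it the differences of the called members were -4.46 for IGFBP1, -1.48 for IGF1R, -1.93 for IRS1 and 1.39 for IRS2. Each stayed past the threshold, which for IGFBP1 is no separate support, since its fall was known beforehand.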

How the data were processed

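Illumina Human-6 bead arrays measured RNA of 3 control and 3 DAMTC samples of A549, grouped by sample title. Per the file headers, the deposited table gives mean bead intensity per probe and array, bead standard error, counts of beads and a detection p-value. The detection p-value came in steps set by 759 negative controls. The authors deposited the table as non-normalized, so its intensities are taken as neither background-subtracted nor scaled. Per the submitters' processing notes BeadStudio was used (version not stated there). The deposited series matrix was a straight line of these intensities per array (largest residual 0.0107), with column medians of 10.94, 9.339 and 8.585 for controls and 8.992, 8.696 and 9.167 for DAMTC.

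In R 4.3.3, limma 3.58.1 was used for background correction (function nec, offset 16), quantile normalization and log2. The 1 probe ID on a pair of rows was averaged. Of 48803 probes, 27578 had 1 symbol in the platform annotation, 13 several and 21212 were not listed. Every probe detected on at least 3 arrays was tested with lmFit and eBayes. The path was also run on simulated data with independent noise per probe and no array set apart. These differ from the real arrays, and no result here rests on that run. Members and lists were chosen with earlier results of these data known. Named genes are all members, up to 4 called genes per list, the ligands and IGF2R, and the 5 called genes most like the member of largest difference. Alternatives covered background, scaling, detection filter, probes tested, moderation, array weights, replicate block and leaving out arrays. The number of arrays limits the precision.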

Additional observations from a re-analysis of the deposited data

How the results depend on the processing

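Of the called members, IGFBP1, IRS1 and IRS2 kept their direction and call in the 12 other settings and in the 6 fits lacking 1 array. These fits reuse the arrays on which the members were chosen. For IGFBP1, whose fall was known beforehand, they show only how far the value depends on processing. The number of probes called was 3973, and 6848 with array weights and 2324 with the replicate block, and ran from 2310 to 5426 over the fits that left out 1 array. Those without DAMTC replicate 1, 2 and 3 gave 2389, 2390 and 2310. Member probes higher numbered 1, and 2 with detection at p under 0.01. They ran from 1 to 2, and those lower from 2 to 4, with 1 array left out. Pathway genes higher numbered 6, and 12 with array weights. The causes of these changes were not tested. The first IGFBP3 probe turned to 0.19 with array weights and ran from -0.16 to 0.17 with 1 array left out, and IGFBP7 from -0.45 to 0.20. Of the called probes 50.2% were higher. Median scaling gave 30.6% and the series matrix 37.1%, and they put the median difference of all probes at -0.21 and -0.14 against -0.01. IRS2 differed by 1.09 and 1.20 under them, above these shifts.

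The sample titles number the replicates but do not say whether equal numbers mark pairs. Deviations of same-numbered arrays from their group means correlated at -0.43, -0.42 and -0.20, and 0 of 6 arrays correlated best with their own number. With 3 arrays per group the deviations within a group sum to 0. These correlations therefore show no pairing but cannot settle whether the arrays were paired. In the fit with the replicate block, 1 member rose and 2 fell, with IGF1R at adjusted p = 0.0625. Among the named pathway genes the block also ended the calls on FOXO1 (adjusted p = 0.0651), the brighter GRB2 probe (adjusted p = 0.0692) and IGF2BP1 (adjusted p = 0.103). No number of beads replaces further cultures, and the signal over background limits what can be said of INSR, the second IRS1 probe and IGF1R with DAMTC.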
